A study of Mus musculus with 36 samples.

Results

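Mini-bulk RNA-seq of Lgr5 GL cells, the genetically labelled progeny of Lgr5+ hair follicle (HF) cells, was examined 2 weeks after a first skin wound (2w). The 3 libraries labelled Lgr5 and 2w and the 3 labelled Lgr5 and 0w, which were made from unwounded skin, were chosen by these labels, and together they are 6 of the 36 libraries of the series. The mice were adult and carried Lgr5-EGFP-ires-CreERT2 together with the reporter Rosa26-fl/STOP/fl-tdTomato. Hydroxytamoxifen was put on their tail skin once, 1 week before the time called 0w, and the 0w cells come from mice with the same alleles and the same agent. At 0w a circular full-thickness wound was punched into the tail skin, and at 2w the tdTomato+ epidermal cells were sorted from a zone that held the wound bed and the HFs distant from it. None of the 36 libraries is from unwounded skin of a later time than 0w. The wound, the greater age of the mice and the longer time since labelling therefore cannot be told apart. Because CreERT2 is driven by Lgr5, the label marks cells that expressed Lgr5 when the drug was given, and everything that descends from them. The study asked how such lineages respond to injury and how long the response lasts, and the 2w libraries were also set against the 3 Lgr5 GL libraries of 1w and the 3 of 4w, and against the 2w and 0w libraries of Lrig1 GL cells, the progeny of a stem cell of the upper HF.

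Lgr5 is a receptor for R-spondins, which strengthen Wnt signalling, and it marks stem cells of the lower HF, in the bulge and in the hair germ under it. These cells regrow the hair in each hair cycle, and after a wound part of their progeny leaves the HF and helps to rebuild the interfollicular epidermis (IFE). Bulge cells at rest express Cd34, Krt15, Sox9 and Lhx2 and sit on a basement membrane held by integrin α6β4, collagen XVII and laminin 332. Cells that move up the IFE make Krt1 and Krt10, whereas cells that enter the growing hair make the inner root sheath keratins Krt25, Krt27, Krt28 and Krt71 or the hair shaft keratins.

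The 6 libraries held 3775424 to 6523595 counts and between 18665 and 20778 genes with a count, and 18025 of the 22587 genes listed for Lgr5 GL cells passed the filter on low counts. Levels are given as CPM, a library's counts divided by its total after TMM scaling and set to a common total, in the order of libraries a, b and c of a group, and they are not per length, so they compare samples and not genes. The floor of 3 counts is worth 0.423 to 1.03 CPM in these libraries. A single non-coding transcript, Gm12415, took 24.7 to 45.4% of the counts, and mitochondrial genes took 1.64 to 3.64%. The library 0w c had the largest share of Gm12415, and with a mean r of 0.758 it correlated least with the other libraries of its own group, where the 5 others had 0.796 to 0.817. The study counts its replicates as mice, while the labels tie no library to a mouse, and p-values measure the spread between these libraries. An exact permutation test of 3 libraries against 3 cannot give a p below 0.1.

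The label Lgr5 was checked against its own gene. Lgr5 was measured at 499, 494 and 321 CPM at 0w and at 313, 400.1 and 225 CPM at 2w. All 6 libraries held it, the groups overlapped, and the log2 fold change was -0.49 ± 0.50 (SE, n = 3 per group). Of the keratinocyte markers, Krt14 lay at 4589 to 5190.4 CPM at 0w and at 3265 to 8353 CPM at 2w, and Trp63, a factor of basal keratinocytes, lay at 228 to 294 and at 188 to 386 CPM.

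At 2w no gene passed the test against 0w. Called genes needed a Benjamini-Hochberg adjusted p under 0.05 in edgeR's quasi-likelihood test over all tested genes together with a log2 fold change beyond 1 in either direction, and 0 of 18025 (0.0%) met both. The smallest adjusted p was 0.151. An unadjusted p under 0.05 was reached by 978 genes that were higher at 2w (5.43%) and by 606 that were lower (3.36%). Other tests on the same counts called more, with 182 genes in edgeR's likelihood ratio test, 194 in DESeq2's Wald test and 3 in limma-voom. The 3 were Lamb3, Krt15 and Sox9, each lower at 2w. The values that follow are therefore levels and differences, and no gene is described as changed between 0w and 2w. All 3 libraries of 2w lay above all 3 of 0w for 1341 genes (7.44%) and below them for 1032 (5.73%). The median log2 fold change of all tested genes was 0.03, with quartiles of -0.47 and 0.62.

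The gene with the smallest p among those higher at 2w was Krt28, and among those lower it was Slc6a4. The 250 bases upstream of the RefSeq start of each are shown because these genes head the order in each direction, with GRCm38.p6 coordinates and on the strand of the gene. Capitals mark the letters TATAAA of a TATA box and CTTTGA of a LEF/TCF motif, searched on both strands, where TCAAAG is CTTTGA read on the other strand.
Krt28, chr11:99374904-99375153, minus strand: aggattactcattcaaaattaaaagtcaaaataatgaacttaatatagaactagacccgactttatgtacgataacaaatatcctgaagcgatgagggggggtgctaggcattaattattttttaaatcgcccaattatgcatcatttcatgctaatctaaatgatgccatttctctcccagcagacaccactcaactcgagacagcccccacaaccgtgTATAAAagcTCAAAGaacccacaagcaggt
Slc6a4, chr11:76998347-76998596, plus strand: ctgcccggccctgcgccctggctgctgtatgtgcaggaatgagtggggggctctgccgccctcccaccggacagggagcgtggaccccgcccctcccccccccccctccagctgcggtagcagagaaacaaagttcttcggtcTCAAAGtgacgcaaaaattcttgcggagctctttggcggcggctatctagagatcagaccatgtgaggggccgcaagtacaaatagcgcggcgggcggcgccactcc
The Krt28 window holds TATAAA 30 bases and TCAAAG 21 bases upstream of the start, without overlap, and the Slc6a4 window holds TCAAAG 107 bases upstream and no TATAAA. Of 32851 mouse promoter windows of the same length, 12.4% hold TATAAA and 13.8% hold CTTTGA. The AP-1 letters TGANTCA, found in 6.75% of the windows, are in neither. Such matches describe the sequence only.

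The 10 named genes of each direction were taken in order of p among genes whose groups did not overlap, so that their separation is a consequence of the choice. The tests of 4w and 1w against 0w use the same 0w libraries, so their calls are not independent of this choice. They are quoted for some of the named genes only. Those higher at 2w included structural, transcriptional and cell cycle genes. Krt28, an inner root sheath keratin (chr11:99364872-99374903), was measured at 1.59, 0.415 and 0.345 CPM at 0w and at 8.32, 15.9 and 19.1 CPM at 2w. The 0w libraries held next to none of it, every 2w library held more, and the log2 fold change was 4.11 ± 0.73 (adjusted p = 0.151). At 4w it stood at 42.8, 63.7 and 84 CPM and passed the test against the same 0w libraries, with a log2 fold change of 6.25 ± 0.79 (adjusted p = 0.0034).

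Ccnd1 (chr7:144929931-144939925), which encodes the cyclin D1 of the G1 phase, had 28.1, 35.1 and 39.6 CPM at 0w and 78, 123 and 103 CPM at 2w. The groups lay well apart, with a log2 fold change of 1.56 ± 0.31 (adjusted p = 0.151). At 4w against 0w Ccnd1 rose by 1.74 ± 0.31 on the log2 scale (adjusted p = 0.0319). The homeobox gene Cux1 had 78.7, 106 and 101 CPM at 0w and 326, 514 and 347 CPM at 2w. Its log2 fold change of 2.06 ± 0.38 at 2w was followed by a called one of 1.93 ± 0.37 at 4w (adjusted p = 0.0465). Nrp2, a co-receptor for semaphorins and VEGF, was at 17.2, 17.8 and 19.3 CPM at 0w and at 74.9, 147 and 91.8 CPM at 2w. The 0w libraries were nearly equal and each 2w library stood far above them (log2 fold change 2.53 ± 0.50, adjusted p = 0.152).

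Sema4d, a membrane semaphorin, had 1.36, 0.415 and 0 CPM at 0w and 10.7, 24.9 and 24.2 CPM at 2w. Ctsc, the lysosomal protease cathepsin C, had 12.5, 11 and 23.4 CPM at 0w and 422, 68.3 and 164 CPM at 2w. For both, the lowest 2w library was above the highest 0w library, and library a of 2w was the lowest in Sema4d and the highest in Ctsc. Crhr1, a receptor for corticotropin-releasing hormone, had no count in any 0w library and 4.09, 4.08 and 9.36 CPM at 2w, which is at least 7.50-fold higher than the mean floor of 3 counts per 0w library. Pcdh20, a protocadherin, had 1 count in all 0w libraries and 6.44 to 13.7 CPM at 2w. The other named genes, Tmem117 and the zinc finger gene Zfp53, had log2 fold changes of 5.80 ± 1.03 and 3.85 ± 0.77 from 0w levels of at most 2.91 CPM.

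The genes lower at 2w included components of the basal cell's anchorage. Lamb3 (chr1:193207699-193343878), the β3 chain of laminin 332, had 706, 634 and 366 CPM at 0w and 204, 182 and 203 CPM at 2w. The 2w libraries were close together and all below the lowest 0w library (log2 fold change -1.53 ± 0.30, adjusted p = 0.151). Col17a1, the hemidesmosomal collagen XVII, had 3000.1, 3069 and 1272 CPM at 0w and 972, 759 and 902 CPM at 2w. Its log2 fold change was -1.48 ± 0.32, and the lowest 0w value was that of library c. Both genes were called at 4w against 0w, where Lamb3 fell by 2.06 ± 0.31 (adjusted p = 0.014) and Col17a1 by 1.71 on the log2 scale (adjusted p = 0.0438).

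Krt15 (chr11:100131758-100135928), a keratin of bulge and basal cells, had 16678, 18382 and 13508 CPM at 0w and 7349.7, 4958 and 6027 CPM at 2w. Every 2w library was below every 0w library, with a log2 fold change of -1.41 ± 0.28 (adjusted p = 0.152). It was called in the neighbouring comparisons with the same 0w libraries, at -2.27 ± 0.29 at 4w (adjusted p = 0.0034) and at -1.16 at 1w (adjusted p = 0.0498), where 0.155 and 1.29% of all genes were called. Sox9, a factor that maintains HF stem cells, had 2419, 2117 and 1172 CPM at 0w and 714, 765 and 677 CPM at 2w (log2 fold change -1.40 ± 0.30, adjusted p = 0.154). The spread of Sox9 was wide at 0w and narrow at 2w, and Sox9 was called at 1w (-1.33 ± 0.30, adjusted p = 0.038). At 4w its log2 fold change was -0.86.

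The matrix glycoprotein gene Sparc had 768, 947 and 376 CPM at 0w and 219, 185 and 181 CPM at 2w, and Cd47, whose product restrains phagocytosis, had 287, 251 and 161 and then 71.1, 96.8 and 112 CPM. Both were called at 4w, with log2 fold changes of -2.35 (adjusted p = 0.0282) and -1.57 (adjusted p = 0.0333). Slc6a4, the serotonin transporter, had 41.1, 40.1 and 14.5 CPM at 0w and 1.27, 0.215 and 1.52 CPM at 2w, a log2 fold change of -4.94 ± 0.96. Ackr4, a scavenging chemokine receptor, and Dnajb9, a chaperone of the endoplasmic reticulum, had log2 fold changes of -2.01 ± 0.43 and -2.40 ± 0.52. Dnajb9 was among the genes called at 4w (-3.13, adjusted p = 0.0333). Atp13a5, a P5-type ATPase, had 16.6, 6.85 and 1.38 CPM at 0w and 0, 0 and 0.218 CPM at 2w.

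**Figure D1:**
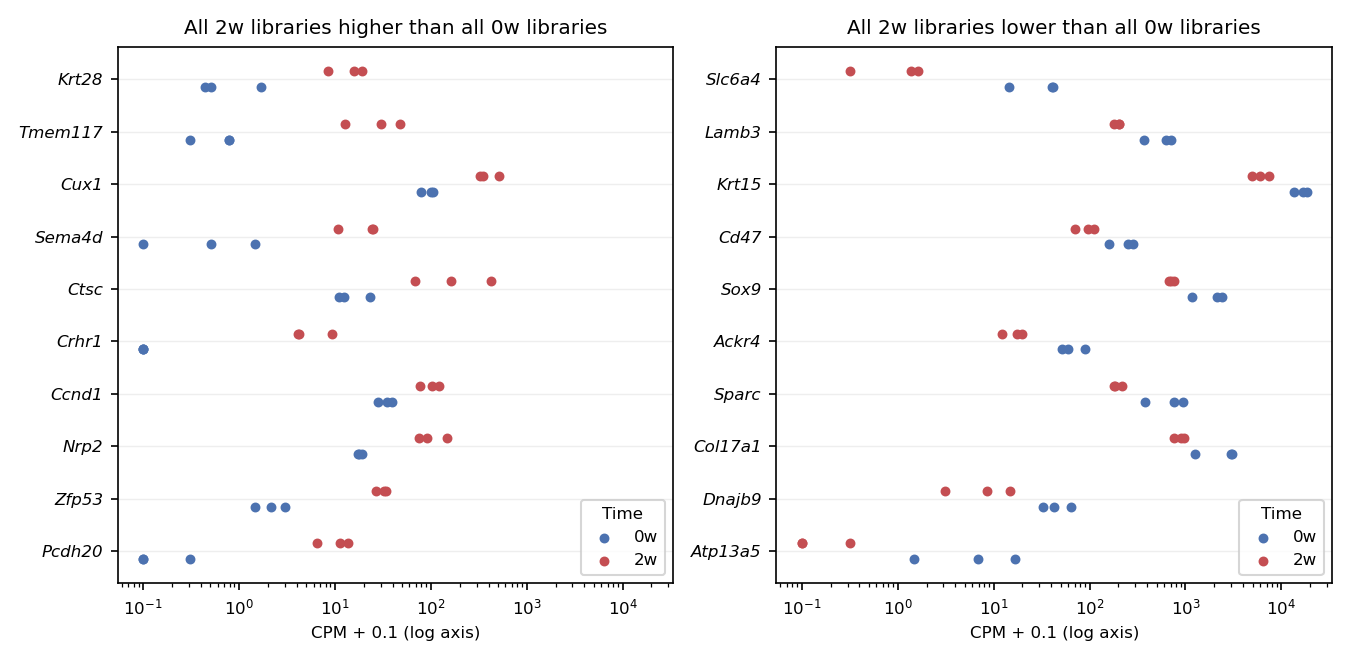
CPM plus 0.1 on a log axis for the 20 named genes in each of the 3 Lgr5 GL libraries at 0w (blue) and at 2w (red), with genes in order of p from the top. Krt15 had the highest levels, between 4958 and 18382 CPM, and Crhr1 lay at 0 CPM in all 0w libraries. The groups do not overlap because the genes were chosen so.

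The same values were gathered by gene lists. No list had a called member at 2w against 0w, and a list's count of members with separated groups is read against 7.44% of all genes above and 5.73% below. Genes of these lists that are named in the next paragraphs and are not among the 20 above were chosen after their values were seen, unless they were the called members or the 3 of highest level of a list.

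The medians of the bulge, basal, migration and TGF-β and BMP lists were below 0, and those of the cell cycle, cholesterol, hair and differentiated IFE lists above 0, under TMM, with DESeq2's size factors, without Gm12415 and with the GC trend removed.

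Stem cell genes of the bulge and hair germ lay mostly lower at 2w. The median log2 fold change of the 16 members was -0.56, 14 were below 0, and 6 (Cd34, Krt15, Sox9, Lhx2, Postn and Ctgf) had all 2w libraries under all 0w libraries. Cd34, a surface marker of bulge cells, had 242, 169 and 94.1 CPM at 0w and 9.88, 36.3 and 38.1 CPM at 2w. It was the lowest of the list, at -2.59 ± 0.62 (adjusted p = 0.216). Postn, the matrix protein periostin, which also marks the infundibulum of the upper HF, had 2790.2, 2079 and 1553 CPM at 0w and 525, 746 and 1253 CPM at 2w, with a smaller gap between the groups (-1.35 ± 0.54). Lhx2 had 157 to 197 CPM at 0w and 85.5 to 154 CPM at 2w, so that its groups nearly touched. The single member with all 2w libraries higher was Lrig1, which restrains EGF receptor signalling and is better known as a marker of stem cells of the upper HF than of the bulge, with 119, 77.8 and 38.6 CPM and then 126, 218 and 129 CPM. Nfatc1, Tcf7l2 and Cdh3, which the bulge or hair germ also express, had overlapping groups and log2 fold changes of -0.32, -0.48 and -0.59. Without 0w library c, 13 of the 16 had separated groups below, where 12.8% of all genes did. Without 2w library a it was 6 of the 16, as with all libraries, where 1989 of all 18025 genes were.

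Basal IFE genes showed the same side. Of 14 members, 11 were below 0, the median was -0.60, and 7 were separated below: Krt5, Itga6, Itgb4, Itgb1, Col17a1, Dst and Lamb3. Of these, Itga6 and Itgb4 encode the chains of the hemidesmosomal integrin, and Dst encodes the plakin that ties it to keratin. Itga6 had 196, 159 and 131 CPM at 0w and 86.3, 91.3 and 84.6 CPM at 2w, so the 2w values were nearly equal and all low. Dst had 722, 899.8 and 323 CPM and then 193, 303 and 272 CPM, with library c of 0w nearest to the 2w level. Krt5, the basal type II keratin, had 4100.1, 5393 and 4219.8 CPM and then 3428, 2297 and 2367 CPM (-0.76 ± 0.22), whereas its partner Krt14 had a log2 fold change of 0.00 ± 0.28. The list of migration integrins and matrix contact shares Itga6, Itgb1, Itgb4 and Lamb3 with the basal list, and 7 of its 20 members were separated below. Tnc, the wound matrix protein tenascin C, was below (80.3 to 188 and then 53.2 to 69 CPM), and Fn1, fibronectin, was the member separated above (36.9 to 54.2 and then 62.9 to 106 CPM).

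Genes of the differentiating IFE varied widely between libraries. Krt1, the keratin of the first suprabasal layer, had 14.1, 25.3 and 8.96 CPM at 0w and 5243, 649 and 1689.8 CPM at 2w. Each 2w library lay far above 0w, yet the 2w libraries spanned 649 to 5243 CPM, and the log2 fold change was 7.28 ± 1.54 (adjusted p = 0.154). Its partner Krt10 had 922, 297 and 80.3 CPM and then 2647, 626 and 2351 CPM, with overlapping groups. Krt2, a keratin of the upper layers, ran the other way, with 786, 483 and 15.9 CPM at 0w and 3.53, 0.859 and 3.26 CPM at 2w. The median over the 18 members tested was 0.50, with 11 above and 7 below 0, and 2 were separated above and 2 below. Without 2w library a or without 0w library c, 2 were separated above and 4 below. Of all 18025 genes, 2462 and 2479 were separated above in these settings, and 1989 and 2307 below. Fabp5, a fatty acid-binding protein of differentiating and stressed keratinocytes, had 44.2, 60.2 and 154 CPM and then 2585, 262 and 287 CPM, with library a of 2w far above the other two. The 8 wound and stress keratins had no member with separated groups, but without 2w library a 5 of them were separated below, where 1989 of all 18025 genes were, and without 0w library c it was 3, where 2307 of all genes were. Krt16 had 72.8, 92.8 and 302 CPM at 0w and 1574, 67.9 and 61.1 CPM at 2w, so that library a of 2w alone was high, and Krt6a and Krt17 had log2 fold changes of -0.79 ± 0.40 and -0.38 ± 0.40. Krt6a and Fabp5 have near copies in the genome, and reads shared between copies make their levels uncertain.

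Hair genes were uneven as well. Among 22 tested hair shaft and inner root sheath genes the median was 0.17, with 15 above and 7 below 0, and Krt28, Krt87 and Dlx3 were separated above. Without 2w library a 7 of the 22 were, where 13.7% of all genes were, and without 0w library c it was 3, where 13.8% were. Dlx3, a homeobox factor of hair differentiation, had 3.86, 6.43 and 0.689 CPM at 0w and 15.5, 25.8 and 56.6 CPM at 2w (3.11 ± 0.72, adjusted p = 0.216). Krt35, a keratin of the hair shaft, had 4.54, 9.34 and 0.345 CPM and then 1.55, 41.4 and 44.4 CPM, where library a of 2w lay within the 0w range. Krt71, of the inner root sheath, had 278, 14.3 and 4.83 CPM at 0w and 7.48, 36.5 and 63.3 CPM at 2w. Krt36 went from 201, 0 and 151 CPM to 0.423, 0 and 0.218 CPM, with a 0w library at 0.

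Cell cycle genes lay mostly higher at 2w. Of 24 G2/M genes, 20 were above 0 with a median log2 fold change of 0.80, and Bub1, Cenpe, Cenpf and Kif23 were separated above. Cenpf, a kinetochore protein, had 20, 20.8 and 21.4 CPM at 0w and 38.8, 31.4 and 49.8 CPM at 2w. Top2a, the topoisomerase of dividing cells, had 11.8, 15.1 and 75.5 CPM and then 71.7, 167 and 90.7 CPM, where library c of 0w reached past library a of 2w. Without 2w library a, 13 of the 24 were separated above, and without 0w library c it was 8, where 13.7 and 13.8% of all genes were. Of 24 G1/S genes 20 were above 0, with a median of 0.36, and Ccnd1, Cdc6 and Tyms were separated above. This count rested on library c of 0w, since without it 18 of the 24 were separated above, and without 2w library a it was 5, against the same shares of all genes. The inhibitor Cdkn1b, p27, had 271, 286 and 314 CPM at 0w and 141, 116 and 235 CPM at 2w, separated below at -0.83 ± 0.33. Over the 14 cell cycle inhibitors tested the median was -0.10, with 5 above and 9 below 0. Of these, 2 were separated below, where 5.73% of all genes were, and 0 above. Of 18 genes of cholesterol synthesis, 15 were above 0 with a median of 0.53, and 4, among them Sqle, Fdps and Nsdhl, were separated above. Without 2w library a it was 7 and without 0w library c 8, where 13.7 and 13.8% of all genes were. Fdps, farnesyl diphosphate synthase, had 2.95, 12.2 and 7.58 CPM and then 28.1, 40.8 and 18.7 CPM.

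Signalling genes were ordered by their place in each pathway. In the TGF-β and BMP list the median was -0.38 and 18 of 25 members were below 0. All 2w libraries were below all 0w libraries for 6 of the 25, and for 10 without 2w library a or without 0w library c, where 1989 and 2307 of all 18025 genes were. Of the ligands, Bmp2 had 94.4, 100.4 and 56.5 CPM at 0w and 8.61, 23.4 and 21.3 CPM at 2w (-2.24 ± 0.59, adjusted p = 0.271), and it was called at 4w against 0w (-4.74 ± 0.72, adjusted p = 0.014). Bmp4 stood at 0, 0.208 and 1.72 CPM and then at 4.51, 11.4 and 12.8 CPM, opposite to Bmp2. Of the secreted BMP inhibitors, Grem1 had 141, 153 and 131 CPM and then 17.9, 35 and 71.2 CPM, and Nog had 13.4 to 16.6 and then 1.41 to 10.7 CPM. Both inhibitors were separated below, as were the decoy receptor gene Bambi (42.2, 44.6 and 48.6 and then 7.62, 19.3 and 8.7 CPM) and the target Id3 (141 to 154 and then 105 to 109 CPM). In the Wnt list, 2 of 25 members were separated above and 2 below, with a median of -0.13, and without 0w library c it was 5 above and 7 below, and without 2w library a 4 above and 2 below. The ligand Wnt10b had 0, 2.28 and 1.72 CPM and then 12, 4.29 and 14.6 CPM, and the secreted protein Dkk3 had 209, 326 and 277 CPM and then 83.1, 117 and 146 CPM. In the Notch list the median was 0.26 over 13 members, of which 1 was separated above and 1 below. The one above was the target Hes1, with 60 to 99.8 CPM at 0w and at least 151 CPM in each 2w library (1.18 ± 0.34, adjusted p = 0.314). The AP-1 factor Jun had 183, 229 and 143 CPM and then 572, 351 and 242 CPM, a log2 fold change of 1.07 ± 0.33. It was the only separated member of the 11 AP-1 factors tested.

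**Figure D2:**
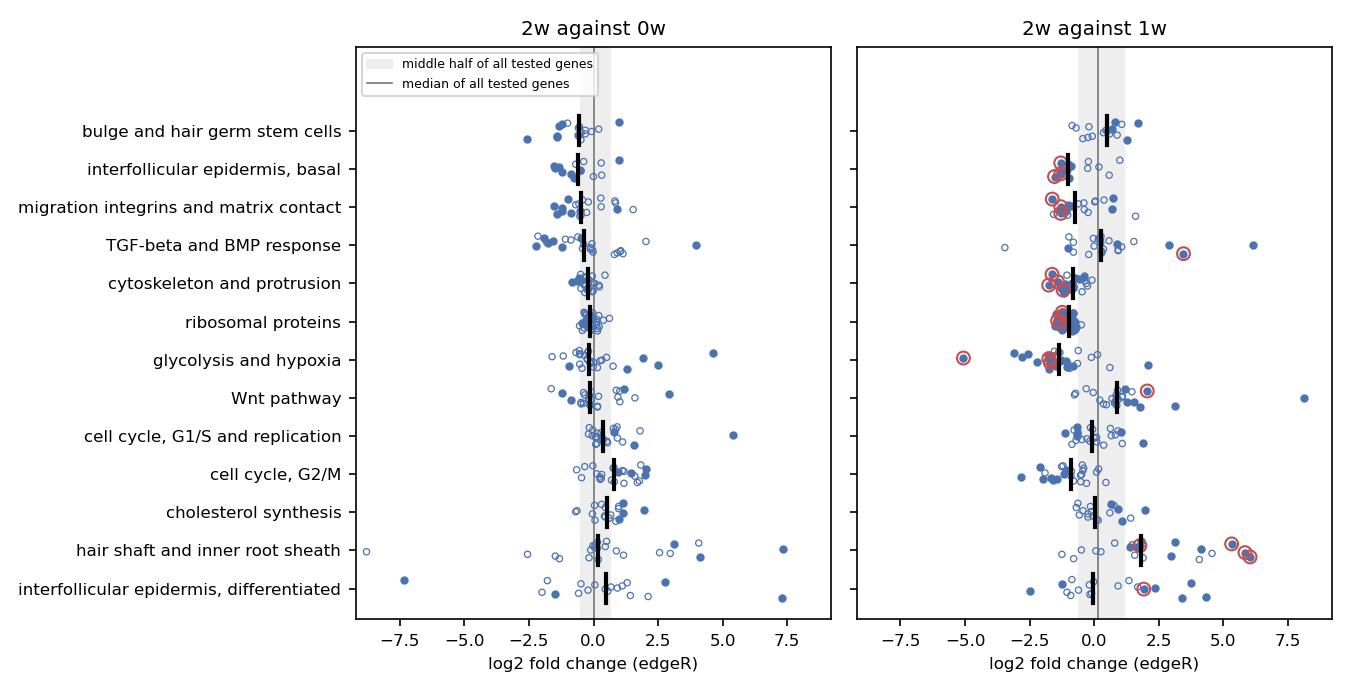
The log2 fold change of every tested member of 13 gene lists, at 2w against 0w (left) and at 2w against 1w (right). Filled points are genes whose groups of 3 libraries do not overlap, open points those that overlap, red rings called genes, black bars list medians, and the grey line and band the median and the quartiles of all tested genes. The panel against 0w has no ring, and in the panel against 1w the ribosomal list sits at a median of -0.99 and the hair list at 1.79.

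Markers of other cells were measured in the same libraries. Of 8 melanocyte genes 5 were listed, and their summed level was 70.0 to 90.5 CPM at 0w and 18.3 to 32.2 CPM at 2w, with Mitf the largest part at 0w, while Tyr, Tyrp1 and Mlana were not listed and Dct lay at 3.79 to 14.1 and 3.92 to 8.16 CPM. The 11 listed fibroblast genes of 12 summed to 773 to 1324 CPM at 0w and 341 to 392 CPM at 2w, of which Sparc and Col6a1 made up most. Col1a1 had 16.6 to 43.8 and 17.6 to 25.8 CPM, and Lum had no count at 0w and 0.652 to 14.2 CPM at 2w. Leukocyte genes (7 of 16 listed) summed to 5.67 to 27.2 and 8.46 to 54.2 CPM. Genes of endothelium, muscle and blood lay between 6.02 and 24.8 CPM at 0w and between 7.95 and 17.6 CPM at 2w, and those of Merkel cells and nerve between 4.31 and 15.9 and between 2.18 and 15.3 CPM. The fibroblast and melanocyte sums were lower at 2w together with the bulge and basal lists and with Sparc, and their part in these results was not tested. In bulk libraries such as these, fewer cells of a type and less RNA per cell cannot be told apart.

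Set against 1w, the libraries from 1 week after the wound, 2w differed by 327 called genes, or 1.81% of 18025. There were 248 higher at 2w (1.38%) and 79 lower (0.438%), and the median of all tested genes was 0.14. When the trend of fold change with GC content was removed, 663 genes were called, 188 higher and 475 lower, and the median of all tested genes moved by -0.49. With the groups of 1w and 2w fitted alone 2 genes were called, and without 2w library b, 2w library c or 1w library 1 there were 16, 37 and 48. The 0w and 2w comparison shares the 2w libraries with this one, so the values of both are given side by side.

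The genes that rose from 1w to 2w were led by Fras1, an extracellular matrix gene of the basement membrane, with 1.63, 4.53 and 1.45 CPM at 1w and 46.1, 56 and 31.8 CPM at 2w. Its log2 fold change was 4.23 ± 0.53 (adjusted p = 0.00493), and at 0w it stood at 20 to 24.7 CPM, above all 1w and below all 2w libraries. Col14a1, collagen XIV, rose by 4.98 ± 0.67 and Rif1, a regulator of replication timing, by 3.46 ± 0.50 on the log2 scale. Of the hair list 4 members rose, namely Krt28 (6.03 ± 0.88, adjusted p = 0.00698), Krt35 (5.83, adjusted p = 0.0344), Dlx3 (5.32 ± 0.85, adjusted p = 0.00979) and the root sheath factor Gata3 (1.77 ± 0.28, adjusted p = 0.00979), and 19 of its 22 members were above 0, with 10 separated above, where 14.2% of all genes were. Gata3 had 135, 178 and 139.9 CPM at 0w and 149, 191 and 105 CPM at 2w, so its 2w and 0w libraries overlapped. Znrf3, which removes Wnt receptors from the membrane, rose by 2.05 (adjusted p = 0.0181), and Tgfb2 by 3.45 ± 0.76 (adjusted p = 0.0299).

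The genes that fell from 1w to 2w included enzymes of glycolysis. Pkm, pyruvate kinase, had 2238, 1137 and 1164 CPM at 1w and 689, 348 and 437 CPM at 2w (-1.62 ± 0.29, adjusted p = 0.0179). Its 0w libraries, at 545 to 606 CPM, lay inside the 2w range. Ldha, lactate dehydrogenase A, had 2417, 1004 and 1089 CPM and then 607, 381 and 344 CPM (-1.76, adjusted p = 0.0182), and Slc16a3, the lactate exporter MCT4, had 549, 50.4 and 117 CPM and then 7.48, 5.15 and 8.7 CPM (-5.06, adjusted p = 0.0222). Over the 28 genes of glycolysis and hypoxia, 4 fell, none rose and the median was -1.36, while against 0w the median was -0.16. Eno1b fell by 2.30 on the log2 scale, and it is a near copy of Eno1, so some reads may match both and its level is uncertain.

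Basal and matrix contact genes fell too. Krt14 had 16476, 12093 and 14649 CPM at 1w and 8353, 3268 and 3265 CPM at 2w (-1.54 ± 0.29, adjusted p = 0.0182), with library a of 2w highest. Itga6 fell by 1.30 on the log2 scale (adjusted p = 0.0271). Of 23 cytoskeletal genes 4 fell and all had values below 0, with a median of -0.81. All 41 ribosomal protein genes tested were below 0 as well, with a median of -0.99, and 38 had separated groups, where 11.7% of all genes did, but only Rpl37a, Rps2, Rps18 and Rpsa were called. Against 0w the ribosomal median was -0.13. The ribosomal, glycolysis, cytoskeletal and basal medians stayed below 0 at 2w against 1w with DESeq2's size factors, without Gm12415 and with the GC trend removed. Ifitm3, an interferon-induced membrane protein, had 275, 396 and 416 CPM and then 56.9, 58.8 and 37.2 CPM (-2.83 ± 0.47, adjusted p = 0.0127). Spink12, a protease inhibitor, fell from 38.5, 66.2 and 298 CPM to 1.55, 0 and 0 CPM, and Lgals9, galectin 9, fell by 1.82 ± 0.33 on the log2 scale (adjusted p = 0.0181).

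The levels of the called genes at 2w were also set beside 0w. Of the 248 that rose, 153 (61.7%) were within 1 log2 unit of 0w at 2w, where 72.8% of all tested genes were, and their median log2 fold change was 3.31 against 1w and 0.71 against 0w. All 2w libraries lay above all 0w libraries for 87 of the 248 (35.1%) and below them for 2 (0.806%). Of all tested genes, 7.44% lay above and 5.73% below. An unadjusted p under 0.05 at 2w against 0w was reached by 71 of the 248 and by 1584 of all 18025 genes. Of the 79 that fell, 67 (84.8%) were within 1 unit of 0w, with medians of -1.54 and -0.37. Separated below 0w were 29 (36.7%) and above it 4 (5.06%), and 22 had an unadjusted p under 0.05. Both sets were chosen by values in the same 2w libraries, so an excess of separated genes on that side can come from the choice. The median log2(CPM + 1) of the 248 genes was 4.42 to 4.64 in the 0w libraries. It was 2.04 to 2.15 in the 1w libraries and 5.04 to 5.50 in the 2w libraries. Because these genes were chosen as higher at 2w than at 1w, the low 1w level follows from the choice. The choice also favours high 2w values, so the place of 2w above 0w is not a separate result. The 248 genes had a median GC content of 46.5% and a median longest transcript of 4761.5 bases, and the 79 had 53.5% and 1758 bases, where all tested genes had 49.2% and 2893 bases. The nuclear RNA Malat1 rose with the first set (2.58 ± 0.49, adjusted p = 0.0182), and 59 of the 248 had clone-like names. The part of GC content, transcript length and nuclear RNA in these calls was not tested beyond the removal of the GC trend.

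**Figure D3:**
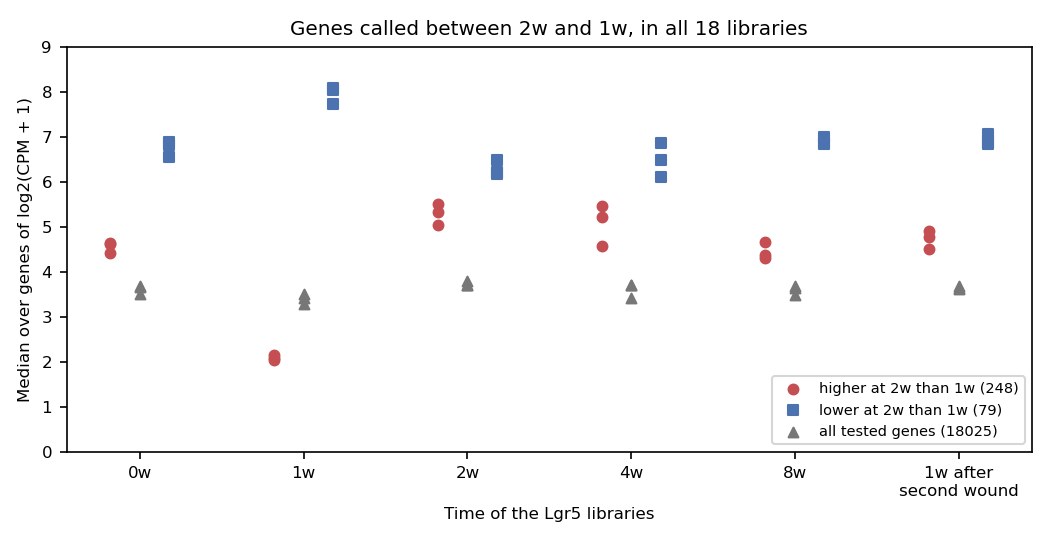
The median log2(CPM + 1) over the 248 genes higher at 2w than at 1w (red circles), the 79 lower (blue squares) and all tested genes (grey triangles) in each of the 18 Lgr5 GL libraries, by time. In the 1w libraries the red medians lie at 2.04 to 2.15 and the blue ones at 7.74 to 8.09, and in the 2w libraries they lie at 5.04 to 5.50 and at 6.17 to 6.48. The red and blue sets were chosen by the test of 2w against 1w, so their distance between these times follows from the choice.

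Between 2w and 4w no gene was called (0.0% of 18025), and each 4w library held fewer counts than any 2w library. The smallest adjusted p was 0.376, 955 genes had an unadjusted p under 0.05 (5.3%), and the likelihood ratio test and DESeq2's Wald test called 5 and 21. The hair list had a median log2 difference of 2.34 from 2w to 4w, and 7 of its 22 members were separated above, where 5.07% of all genes were. Krt71 stood at 7.48, 36.5 and 63.3 CPM at 2w and at 242, 2600.4 and 256 CPM at 4w, and Krt35 at 1.55, 41.4 and 44.4 CPM and then at 18.5, 320.2 and 303 CPM. Bulge genes had a median of -0.35 over this step, and basal genes of -0.13. Against the shared 0w libraries, 4w had 28 called genes (0.155%), of which 9 rose (0.0499%) and 19 fell (0.105%).

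**Figure D4:**
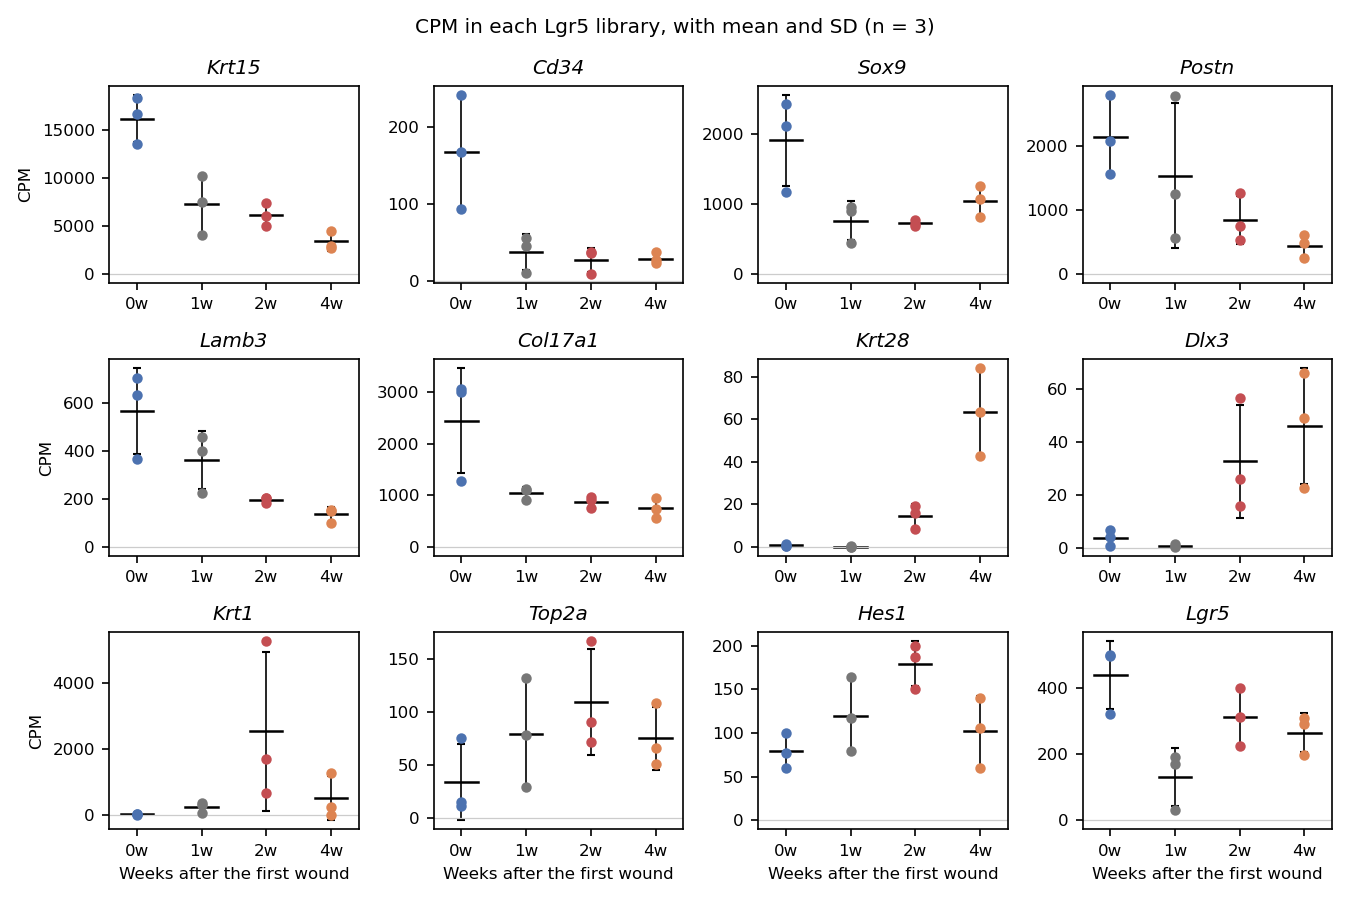
CPM of 12 genes in each of the 3 Lgr5 GL libraries at 0w, 1w, 2w and 4w (points), with the mean (line) and SD (bar). The 2w libraries of Krt15, Lamb3 and Col17a1 lie under those of 0w, those of Krt28 and Dlx3 above, those of Krt1 span 649 to 5243 CPM, and those of Lgr5 overlap with 0w.

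The 2w change in Lgr5 GL cells was compared with that in Lrig1 GL cells by a test of the difference itself. None of the 16153 genes tested in both populations was called in edgeR's quasi-likelihood test (0.0%), and 1508 had an unadjusted p under 0.05 (9.34%), with 109 called by the likelihood ratio test and 132 by DESeq2's Wald test. Lrig1 GL cells themselves had 0 called genes of 14306 at 2w against 0w (0.0%). Nrp2 had the smallest adjusted p of the difference, 0.075. In Lrig1 GL cells it was at 23.1, 25.2 and 19.2 CPM at 0w and at 14.7, 8.82 and 11.2 CPM at 2w, below 0w in each library and opposite to Lgr5 GL cells, and the difference of the log2 changes was 3.46 ± 0.69. Krt15 had log2 fold changes of -1.41 ± 0.28 in Lgr5 and -2.33 ± 0.60 in Lrig1 GL cells, and Ctsc of 3.81 ± 0.74 and 2.51 ± 0.54. Lamb3, at -1.53 ± 0.30, had -0.09 ± 0.30 in Lrig1 GL cells, and Ccnd1, at 1.56 ± 0.31, had -0.12 ± 0.41. The differences for Lamb3 and Ccnd1 were -1.45 ± 0.41 and 1.66 ± 0.50, with adjusted p of 0.226 and 0.261.

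**Figure D5:**
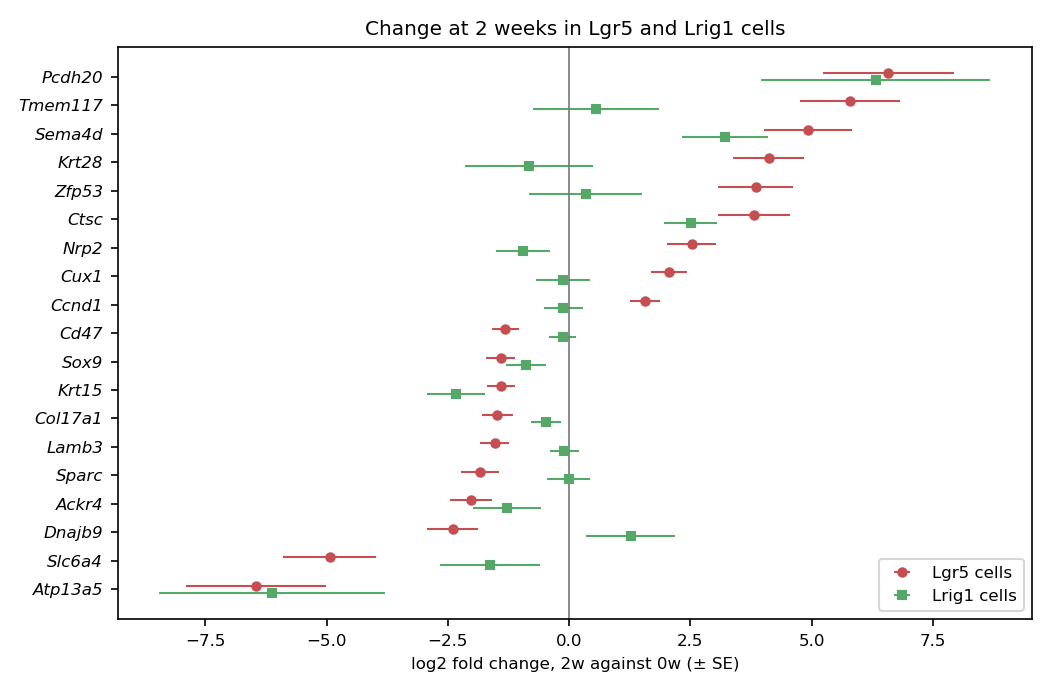
The log2 fold change at 2w against 0w with its SE in Lgr5 GL cells (red circles) and in Lrig1 GL cells (green squares), for the 19 of the 20 named genes tested in both. The genes were chosen by their values in Lgr5 GL cells. Krt15, Ctsc and Sema4d lie on the same side of 0 in both, while Lamb3, Cux1 and Ccnd1 lie near 0 in Lrig1 GL cells.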

How the data were processed

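Reads were trimmed with Trim Galore 0.5.0, aligned to GRCm38 with HISAT2 and counted per gene with featureCounts, and the authors deposited the raw counts, 1 table per population. The stated counting options name no strand, so reads in overlapping genes were not told apart by strand. Only genes with at least 3 counts in a library are listed. Column numbers of the 0w, 2w and 4w libraries differ from those of the labels, so libraries were matched by group and called a, b and c.

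All 18 Lgr5 GL libraries were fitted together in R 4.3.3 with edgeR 4.0.16 (filterByExpr, TMM, prior count 0.125, quasi-likelihood test, Benjamini-Hochberg adjustment), and all 36 for the difference between populations. The SE is the log2 fold change divided by the root of F. Named were, per direction, the 10 genes of smallest p with separated groups, a log2 fold change above 1 in size and at least 10 counts on average; called members and the 3 highest of each list; and 5 called genes per other test. Symbols of clones were counted and not named. Some genes that met the rule are not reported here. Members and lists were chosen with earlier results of these data known. Alternatives used DESeq2 1.42.0, limma 3.58.1 and sva 3.50.0. The methods were tested on simulated data. RefSeq held promoters of 17 of the 20 genes, in 21 windows.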

Additional observations from a re-analysis of the deposited data

How the results depend on the processing

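At 2w against 0w the count of 0 held with DESeq2's size factors, without a filter, with only the groups compared, without Gm12415, with the GC trend removed and with a replicate block. It moved to 182 (likelihood ratio test), 194 (DESeq2's Wald test), 3 (limma-voom), 3 (2 surrogate variables) and 109 (test across the time course), and to 0 to 2 when a library was left out. At 2w against 1w the 327 became 1487, 1643, 165 and 2 under the first 4 of these tests, 2 with only the groups compared, 663 with the GC trend removed and 58 with a replicate block, and 16 to 296 without a library. Limma-voom called 78 higher and 87 lower. The genes of smallest adjusted p named in that comparison all lost their call with 2 surrogate variables and with only the groups compared, and Ifitm3, Spink12, Eno1b, Pkm and Lgals9 lost it without 2w library b or c. Pkm also lost it without 1w library 1 and with a replicate block, Lgals9 with a replicate block and Spink12 in limma-voom. At 4w against 2w the 0 became 5 in the likelihood ratio test and 21 in DESeq2's Wald test. The difference between populations went from 0 to 109 and 132 in the same tests and to 0 to 10 without a library, with the 10 found without 0w library 3 of Lrig1. The 20 genes named at 2w against 0w passed in the likelihood ratio test and in DESeq2's Wald test. Neither these nor the genes of smallest adjusted p named at 2w against 1w reversed under the alternatives run for them. All were chosen with separated groups, so a reversal was hardly possible and its absence does not test them. Removing the GC trend moved the median of all genes by -0.23 at 2w against 0w. The causes were not tested. For 0w and 2w libraries with the same column number, deviations from the group means correlated at r of -0.0046 and 0.060. Libraries of unlike number were not compared, so whether such libraries share a mouse or a batch was not tested. The gene counts without library a of 2w or c of 0w were chosen after seeing the data. With 3 libraries a group and a common biological coefficient of variation of 0.662, small differences were not detectable, and large ones could also go uncalled. At 2w against 0w, Krt28 and Crhr1 were not called at log2 fold changes of 4.11 and 7.57.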

Other observations

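Genes of the polycomb complexes and of H2A deubiquitination had a median log2 fold change of 0.18 over 22 members at 2w against 0w, where all tested genes had 0.03, and none was called. With the GC trend removed the median was -0.09. Ezh2, the H3K27 methyltransferase, had 2.72, 13.5 and 2.76 CPM at 0w and 22.7, 54.5 and 40.5 CPM at 2w (2.61 ± 0.88). Bmi1, a subunit of the H2A ubiquitin ligase complex, had 17.9 to 23.1 and then 26 to 42.2 CPM, and Rnf2, the ligase itself, had 55.4, 51.7 and 49.3 and then 19.8, 23.4 and 30.9 CPM (-1.08 ± 0.55). The groups of these 3 genes did not overlap, and the genes were picked after their values were seen. They were the only separated members, 2 above and 1 below of 22, where 7.44% of all genes were above and 5.73% below.

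Slc2a1, the glucose transporter Glut1, had 163, 132 and 46.9 CPM at 0w, 1775, 455 and 639 CPM at 1w and 422, 184 and 244 CPM at 2w, so that each 2w library lay above all of 0w and below all of 1w. Car9, a carbonic anhydrase induced by hypoxia, had 1 count in all 0w libraries, 3.4 to 52.5 CPM at 1w and 2.36 to 3.1 CPM at 2w.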
